A study of Mus musculus with 4 samples.

Results

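The genes described here encode the actin cytoskeleton and its contractile apparatus. The list held 42 genes: actins, calponins and transgelins, tropomyosins and caldesmon, nonmuscle myosin chains, filament cross-linkers, the ezrin, radixin and moesin (ERM) proteins, filament turnover factors, and the Arp2/3 complex with a formin. They were chosen by symbol from a table of all genes, and all 42 were found, each under 1 Entrez identifier, among 27178 genes. RNA came from the embryonic mouse gut, from neural crest-derived cells of the Wnt1-tdT reporter line, 11.5 days post coitum. These cells invade the gut from its oral end and build the enteric nervous system. There were 2 libraries of cells from the invasive wavefront and 2 of cells lying 1 to 1.5 mm behind it, here called trailing cells. In this line a red fluorescent protein marks cells descended from Wnt1-expressing neural crest, and all 4 libraries came from cells sorted for it. The labels give no embryo, litter or pool for a replicate, so a p-value reflects the spread among the 4 libraries alone, and that spread may be technical.

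Actin monomers add to and leave the ends of filaments, and a cell moves by pushing its front with growing filaments and pulling its rear with contracting ones. Profilins, cofilins and beta-thymosins set the supply and loss of monomers, the Arp2/3 complex branches filaments, and formins extend them. Tropomyosins, calponins and caldesmon bind along filaments and adjust access of myosin, nonmuscle myosin II pulls on them, and filamin, alpha-actinin and fascin tie them together. In the gut, the smooth muscle isoforms Acta2, Actg2, Cnn1 and Tagln belong to the muscle layers, while migrating crest cells use the cytoplasmic isoforms.

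The promoter sequences of 3 members are shown because the results below turn on them: by counts Cnn2 rose at the wavefront, Tagln3 fell, and Cnn3, the more abundant paralogue of Cnn2, did not pass. Sequences are RefSeq's for GRCm38.p6, read 5′ to 3′ on the strand of the gene, and stop before the annotated starts. Capitals mark a CArG box, the binding motif of serum response factor (SRF), a regulator of many actin genes. The Cnn2 stretch is chr10:79988350-79988583 on the plus strand, the Cnn3 stretch is chr3:121426291-121426496 on the plus strand and the Tagln3 stretch is chr16:45724609-45724781 on the minus strand.
Cnn2: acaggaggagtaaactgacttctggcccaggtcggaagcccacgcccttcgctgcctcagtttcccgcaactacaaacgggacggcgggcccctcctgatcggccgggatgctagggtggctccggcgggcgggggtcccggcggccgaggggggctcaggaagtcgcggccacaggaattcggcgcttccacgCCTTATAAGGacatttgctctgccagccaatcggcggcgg
Cnn3: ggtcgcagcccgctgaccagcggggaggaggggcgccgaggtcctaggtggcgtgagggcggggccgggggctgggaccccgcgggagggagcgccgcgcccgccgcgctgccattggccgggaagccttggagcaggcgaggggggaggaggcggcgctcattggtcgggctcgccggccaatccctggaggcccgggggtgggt
Tagln3: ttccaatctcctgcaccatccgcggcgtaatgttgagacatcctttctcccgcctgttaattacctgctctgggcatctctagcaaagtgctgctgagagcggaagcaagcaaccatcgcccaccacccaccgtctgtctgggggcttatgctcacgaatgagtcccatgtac

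Promoter windows, from 250 bases before to 50 after a start, were matched for 38 of the 42 members, with 45 windows in all; Actb, Actg2, Diaph1 and Tagln were not matched. A CArG box, searched on both strands, lay in 4 of these 45 windows (8.89%) and in 535 of 32851 windows of all genes (1.63%). Those of Actg1, Myl6 and Myl9 are shown beside that of Cnn2, with 10 bases on either side, to compare the letters inside the box. Distances run from the first base of the box, on the strand of the gene, to the RefSeq start. For each of these boxes that start lies inside the GENCODE gene. The Myl6 box itself (chr10:128493050-128493059) also lies inside its gene, which on the minus strand starts at 128494145, while the other boxes lie before theirs. The printed stretches above stop before whichever of the RefSeq and GENCODE starts comes first.
Cnn2, 56 bases before the RefSeq start, chr10:79988534-79988563, plus strand: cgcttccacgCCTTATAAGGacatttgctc
Actg1, 90 bases before the RefSeq start, chr11:120348566-120348595, minus strand: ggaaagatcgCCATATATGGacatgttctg
Myl6, 50 bases before a RefSeq start inside the GENCODE gene, chr10:128493040-128493069, minus strand: gctcttacttCCTTATATGGgcaggaccta
Myl9, 161 bases before the RefSeq start, chr2:156775293-156775322, plus strand: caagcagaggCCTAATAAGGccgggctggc
The letters GGAATG, the core of the TEAD motif, were found on either strand in 12 of the 45 windows (26.7%) and in 14.7% of all windows. These matches describe letters only. Of the 4 genes with a CArG box, Cnn2 rose, Actg1 was at a log2 fold change (wavefront over trailing) of 0.53 and Myl6 at 0.02, both short of the threshold, and Myl9 had too few reads to test.

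Reads were recovered as whole numbers from the deposited CPM (reads scaled to a fixed library total). Outside ribosomal RNA the libraries held 114972 to 452144 reads. Wavefront replicate 2 was the shallowest, with 55.5% of its reads on ribosomal RNA against 15.6 to 26.1% in the others. It also held 110 reads of red blood cell markers, against 0 to 2 in the others. Of 10 crest progenitor markers, Ret among them, all were read in 3 libraries and 2 were at 0 in wavefront replicate 2. Scaled CPM below are reads over library sizes adjusted by TMM, a method that sets the bulk of genes equal between libraries. In bulk RNA, fewer cells of a type and less RNA per cell cannot be told apart.

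Of the listed genes, Cnn2 rose and Tagln3 fell at the wavefront in the test on read counts, and no member passed in limma, the test on the deposited CPM. The list took 2.98 and 2.89% of the reads outside ribosomal RNA in trailing replicates 1 and 2, and 3.91 and 3.18% in wavefront replicates 1 and 2. Actb alone gave 50.5 to 56.0% of these reads. By counts, that is by the quasi-likelihood test of edgeR on recovered reads, 31 members had enough reads to be tested. At a threshold of 0.05 on the adjusted p (Benjamini-Hochberg), 1 rose, 1 fell and 29 did not pass, where 1.74% of 5759 genes were called, 0.399% higher and 1.34% lower. At an unadjusted p under 0.05 there were 4 higher and 2 lower members of 31, where 9.95% of all genes were past that mark, 4.05% higher and 5.90% lower. The median log2 fold change of the 31 members, wavefront over trailing, was 0.09, against 0.01 over all genes tested, with 20 of the 31 above 0 where 50.9% of all genes were, and 19 of the 31 within 0.5 of no change. Limma on log2(CPM + 1), run on the deposited CPM with ribosomal RNA in the totals and no further scaling, called 0 of 41 members and 0.00% of 12519 genes. There 3 members, Tagln3, Flnc and Cnn2, had an unadjusted p under 0.05, as did 6.85% of all genes, 1.07% higher and 5.78% lower. The members' median was -0.07 on that log2(CPM + 1) scale and that of all genes -0.35. With TMM factors the median of all genes in limma was -0.05. In that setting 2 members, Cnn2 and Tagln3, and 46 of 12409 genes were called. DESeq2 on the recovered reads gave 31 members an adjusted p and called 1, Cnn2, with 0.426% of the 3519 genes given one, 0.0853% higher and 0.341% lower. In the authors' deposited table, with their p-values adjusted here, Cnn2 was the 1 member past the threshold (Wald test, adjusted p = 0.0474). The share of all genes past it was 0.0891%, 0.0206% higher and 0.0685% lower.

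**Figure D1:**
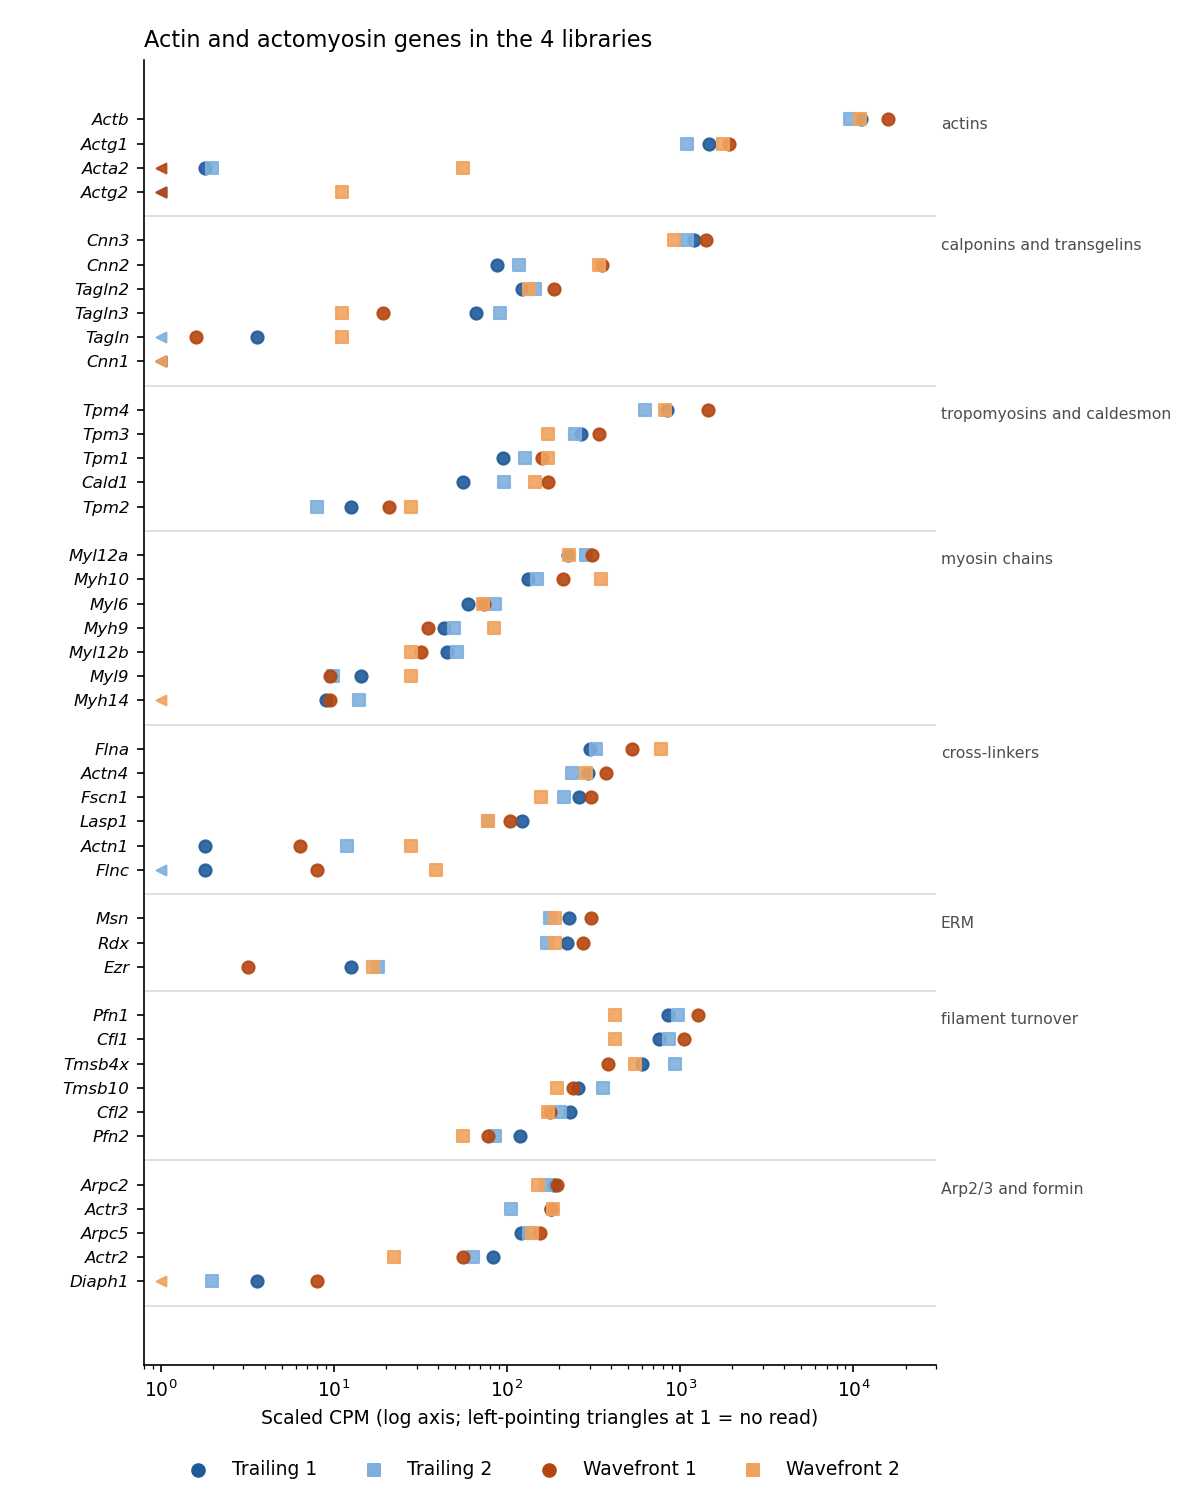
Scaled CPM (log axis) of the 42 members in each library, grouped by role; circles are replicate 1, squares replicate 2, blue trailing and orange wavefront, and triangles at 1 stand for no read. Cnn2 lies at 340 and 355 at the wavefront against 87.9 and 117 in trailing cells, and Tagln3 at 11.1 and 19.1 against 66.4 and 91.4.

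The cytoplasmic actins had the highest scaled CPM of the members on average over the libraries, and neither passed. Actb, beta-actin, had scaled CPM of 11085 and 9614 (trailing) and of 15760 and 10919 (wavefront). The groups overlapped, and wavefront replicate 1 was the highest of the 4. Its log2 fold change was 0.37 ± 0.57 SE (edgeR adjusted p = 0.907). Actg1, gamma-actin, had 1462 and 1091 against 1922 and 1755, with both wavefront libraries above both trailing ones (0.53 ± 0.39, edgeR adjusted p = 0.732). Actb took 88.3 and 89.8% of all actin reads in trailing cells and 89.1 and 85.7% at the wavefront, with the groups overlapping. Of the 50-base stretches of Actg1 transcripts 25.9% also occur in transcripts of other genes, most of them in the copy Gm12715, so part of its reads may have been assigned elsewhere.

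Smooth muscle actins were close to absent from 3 libraries. Acta2, alpha smooth muscle actin, had 1 and 1 trailing reads, 0 in wavefront replicate 1 and 10 in wavefront replicate 2. Its scaled ratio was 6.56 (95% exact binomial counting interval 1.40 to 61.6). That interval pools the reads of each group and leaves out the spread between libraries. Actg2, the enteric smooth muscle actin, had 2 reads in wavefront replicate 2 and was listed at 0 in the others. Neither could be tested.

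Among the calponins and transgelins, which bind along actin filaments, 1 of the 4 tested genes rose, 1 fell and 2 did not pass. Cnn2, a calponin, is a protein-coding gene on chromosome 10 (79988584 to 79996062, GRCm38, plus strand). It was read 49 and 59 times in trailing cells and 223 and 61 times at the wavefront. In scaled CPM these were 87.9 and 117 against 355 and 340, so the wavefront libraries lay close together and well above both trailing ones. The mean of Cnn2 went from 103 ± 20.7 to 347 ± 10.6 (SD, n = 2 each), a log2 fold change of 1.76 ± 0.32 SE (edgeR adjusted p = 0.000237). In limma it was 1.47 ± 0.46 (adjusted p = 0.68). In the authors' deposited table it was 1.46, against 1.77 in DESeq2 on the recovered reads. The authors' fold changes were also smaller in size than those of DESeq2 here for Tagln3, Arhgef3, Col3a1 and Des, so the scales may differ. Cnn3, acidic calponin, was more abundant and its groups overlapped, at 1200 and 1099 against 1405 and 919 scaled CPM (0.02 ± 0.37, edgeR adjusted p = 0.996). Cnn1, the smooth muscle calponin, had 0 reads in all libraries, which allows up to 2.83 (trailing) and 3.71 (wavefront) scaled CPM for counting error alone, with 3 reads over each group as the limit.

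Cnn2's call ended without trailing replicate 1 (1.59, edgeR adjusted p = 0.21) and with scaling by library size alone (1.53, adjusted p = 0.517). It held without wavefront replicate 2 (1.85, adjusted p = 2.79e-05). The 15 gut mesenchyme markers summed to 210 and 227 (trailing) and to 349 and 1392 (wavefront) in CPM outside ribosomal RNA. Barx1, Twist1 and Twist2 were at 0 in all libraries. Apart from Col1a2 and Col3a1, each of the others had its most reads in wavefront replicate 2. Among them were Pdgfra (1 and 1 trailing reads, 2 and 10 at the wavefront), Pdgfrb (1 and 1, 1 and 8) and Lum (0 and 0, 3 and 8). Most reads of the 15 markers were of Col3a1, a fibrillar collagen. It had 65 and 58 reads in trailing libraries and 132 and 94 in wavefront ones and rose (1.59 ± 0.34, edgeR adjusted p = 0.00336). The call of Col3a1 ended without wavefront replicate 2 (0.91, adjusted p = 0.191), without trailing replicate 1 (1.64, adjusted p = 0.179) and without trailing replicate 2 (1.60, adjusted p = 0.169). Des, a muscle filament gene on the visceral smooth muscle list, rose (edgeR adjusted p = 9.77e-06), with 8 and 6 reads in trailing cells and 73 and 10 at the wavefront, while Myh11, Cnn1 and Lmod1 of the same marker list were at 0 in all libraries. The call of Des ended without wavefront replicate 1 (2.05, adjusted p = 0.249). The part of these cells in the levels of Cnn2, Cald1, Flna and Myh10 was not tested.

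Tagln3, a transgelin of neurons (chromosome 16, 45711230 to 45724608, minus strand, protein-coding), was the member that fell. It was read 37 and 46 times in trailing cells, and 12 and 2 times at the wavefront. In scaled CPM it stood at 66.4 and 91.4 (trailing) and at 19.1 and 11.1 (wavefront), with no overlap. Its mean went from 78.9 ± 17.7 to 15.1 ± 5.62 (SD, n = 2 each), a log2 fold change of -2.18 ± 0.43 SE (edgeR adjusted p = 0.000905). Limma gave -2.61 ± 0.59 (adjusted p = 0.68). Its call ended without trailing replicate 2 (-1.95, edgeR adjusted p = 0.1), in DESeq2 (-2.25, adjusted p = 0.443) and in the authors' deposited table (-1.31, adjusted p = 1 with their p-values adjusted here). Enteric neuron markers moved with it: their 10 genes summed to 4496 and 4884 (trailing) and to 1106 and 983 (wavefront) in CPM outside ribosomal RNA, 9 of the 10 fell by counts, with Dcx and Th at 0 in wavefront replicate 2 and no marker at 0 in the others. Their part in the fall of Tagln3 was not tested.

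Tagln2, the transgelin of nonmuscle cells, overlapped between the groups, at 122 and 145 against 188 and 134 scaled CPM (0.32 ± 0.31, edgeR adjusted p = 0.827). Tagln, the smooth muscle transgelin also called SM22, had 2 and 0 trailing reads and 1 and 2 at the wavefront. The smooth muscle isoforms Acta2, Actg2, Cnn1 and Tagln together gave 3, 1, 1 and 14 reads in trailing replicates 1 and 2 and wavefront replicates 1 and 2. Most of these few reads came from the library that also carried the most mesenchyme and red blood cell reads.

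**Figure D2:**
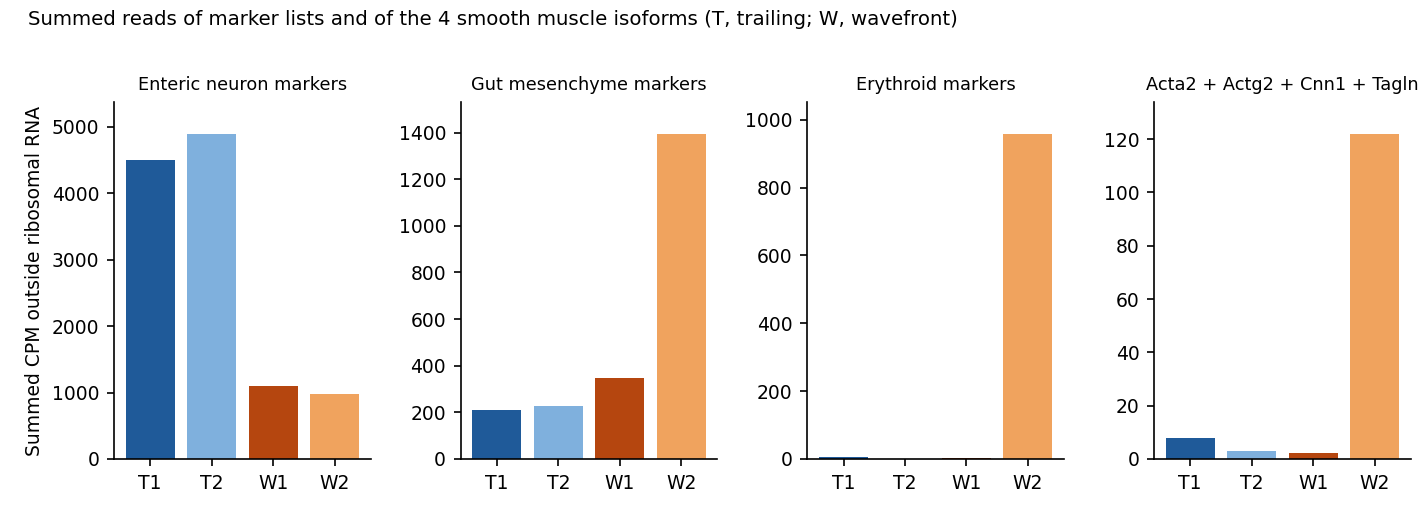
Summed CPM outside ribosomal RNA of enteric neuron, gut mesenchyme and erythroid markers and of the 4 smooth muscle isoforms, 1 bar per library, each panel with its own axis from 0. Neuron markers stand at 4496 and 4884 in trailing and 1106 and 983 in wavefront libraries, and the other 3 panels are highest in wavefront replicate 2.

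Caldesmon and the tropomyosins, which cover the filament and gate myosin, lay above 0 in all 4 tested genes with all libraries and TMM, with none past the threshold. It was 3 of 4 with scaling by library size alone, with the replicate block and without wavefront replicate 1, and 4 of 5 without trailing replicate 2. Cald1, caldesmon, came nearest, with 31 and 48 reads against 109 and 26, or 55.6 and 95.4 against 173 and 145 scaled CPM. Both wavefront libraries were above both trailing ones (1.11 ± 0.32, edgeR adjusted p = 0.056). Without wavefront replicate 2 Cald1 passed (1.26, adjusted p = 0.0207), and without trailing replicate 1 the adjusted p was 0.866 (0.78). Tpm4, the most read tropomyosin, had 834 and 624 against 1445 and 819 scaled CPM, so wavefront replicate 1 stood apart and the other wavefront library lay among the trailing ones (0.65 ± 0.37, edgeR adjusted p = 0.599). Tpm1 was at 95.1 and 127 against 159 and 173 (0.57 ± 0.31, adjusted p = 0.558). Tpm3 was at 0.06 ± 0.32 and had group means of 256 (trailing) and 255 (wavefront) scaled CPM. Tpm2, a muscle-type tropomyosin, had 7 and 4 reads against 13 and 5, under the filter. Reads of Tpm3 and Tpm4 may be shared, since 9.87 and 9.09% of their 50-base stretches also occur in other genes.

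Nonmuscle myosin II has a heavy chain motor with regulatory and essential light chains. Myh10, the heavy chain of myosin IIB, had 74 and 75 trailing reads, and 132 and 63 at the wavefront. In scaled CPM these were 133 and 149 against 210 and 351, all wavefront values above all trailing ones, with a wide gap between the wavefront libraries (0.94 ± 0.32, edgeR adjusted p = 0.14). Myh9, the heavy chain of myosin IIA, had 43.1 and 49.7 against 35.01 and 83.6, with the wavefront libraries on either side of the trailing ones (0.09 ± 0.40, edgeR adjusted p = 0.973). Myh14, of myosin IIC, had 5, 7, 6 and 0 reads and was not tested. The regulatory light chain Myl12a had 226 and 284 against 309 and 228 scaled CPM (0.10 ± 0.31, edgeR adjusted p = 0.958). Its neighbour on the chromosome, Myl12b, had 44.9 and 51.7 against 31.8 and 27.9 and did not pass (-0.64 ± 0.42, adjusted p = 0.677). The coding parts of this pair are near copies, with 12.7 and 14.5% of their 50-base stretches found in other genes, so their split is uncertain. The essential light chain Myl6 had group means of 72.3 (trailing) and 72.8 (wavefront) scaled CPM. Myl9, the smooth muscle regulatory light chain, had 5 to 8 reads in each library.

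Flna, filamin A, which cross-links filaments into networks and ties them to integrins, had 168 and 164 trailing reads and 329 and 139 at the wavefront. That is 301 and 326 against 523 and 774 scaled CPM, without overlap (1.03 ± 0.34, edgeR adjusted p = 0.123). Without wavefront replicate 1 it passed (1.30, adjusted p = 0.0435), and without wavefront replicate 2 it was at 0.79 (adjusted p = 0.323). Flnc, the muscle filamin, had 1 and 0 trailing reads against 5 and 7, a scaled ratio of 15.75 (95% exact counting interval 2.33 to 673). That interval pools the reads of each group and leaves out the spread between libraries. Flnc had the second smallest p of the members in limma (3.30 ± 0.95 on the log2(CPM + 1) scale, adjusted p = 0.68). Actn4, an alpha-actinin of nonmuscle cells, had 294 and 236 against 371 and 284 scaled CPM (0.32 ± 0.32, edgeR adjusted p = 0.832). Actn1, its paralogue, had 1, 6, 4 and 5 reads. Fscn1, the fascin of filopodial bundles, was at 0.02 ± 0.32 and Lasp1, a LIM and SH3 adaptor, at -0.08 ± 0.32, neither past the threshold.

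Msn and Rdx, moesin and radixin, link filaments to the cell membrane and were read at similar depth. Msn had 228 and 177 against 307 and 189 scaled CPM (0.34 ± 0.31, edgeR adjusted p = 0.821). Rdx followed with 222 and 169 against 274 and 189 (0.28 ± 0.31, adjusted p = 0.861). In both, wavefront replicate 1 was the highest library and the groups overlapped. Ezr, ezrin, the epithelial member of the trio, was read 7 and 9 times in trailing cells and 2 and 3 times at the wavefront, with overlap in scaled CPM.

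All 6 filament turnover genes had a log2 fold change below 0, and none passed. Tmsb4x, thymosin beta-4, which sequesters monomers, had 336 and 471 trailing reads and 239 and 98 at the wavefront. Its scaled CPM of 603 and 936 against 380 and 546 did not overlap (-0.75 ± 0.36, edgeR adjusted p = 0.463). Tmsb10, its paralogue, was at -0.48 ± 0.32, with 257 and 360 against 240 and 195. The neuronal profilin Pfn2 was at -0.53 ± 0.33 (118 and 85.4 against 77.97 and 55.7) and Cfl2 at -0.31 ± 0.31 (231 and 203 against 177 and 173), again without overlap. Pfn1, profilin 1, and Cfl1, cofilin 1, which feeds monomers back by severing filaments, were nearest to 0 of the 6. Pfn1 had 854 and 972 scaled CPM in trailing cells but 1270 and 418 at the wavefront, and Cfl1 had 755 and 862 but 1052 and 418. For both, 1 wavefront library was the highest and the other the lowest of the 4, and without wavefront replicate 2 Pfn1 was at 0.53. In that setting 2 of the 6 genes lay above 0, and 1 of the 6 without trailing replicate 2. Under each of the 4 scalings run by counts all 6 lay below 0.

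Of the 4 Arp2/3 genes tested, which build branched networks, none passed. Arpc2, a core subunit, had 187 and 167 against 194 and 150 scaled CPM (-0.0011 ± 0.31, edgeR adjusted p = 0.999). Arpc5 was at 0.23 ± 0.30 and Actr3, which encodes Arp3, at 0.34 ± 0.31. Actr2, which encodes Arp2, had 82.5 and 63.6 against 55.7 and 22.3, without overlap, and did not pass (-0.66 ± 0.36, edgeR adjusted p = 0.558). The formin Diaph1 had 2, 1, 5 and 0 reads, too few to test.

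Over the 31 tested members, 14 had wavefront and trailing libraries that did not overlap in scaled CPM, 7 higher and 7 lower, which is 45.2% where 39.3% of all tested genes did so (18.6% higher and 20.7% lower). That share is near the background. The 25 tested members with an unadjusted p of 0.05 or more ranged in log2 fold change from -0.66 to 0.65, with adjusted p of 0.558 to 0.999 in edgeR.

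**Figure D3:**
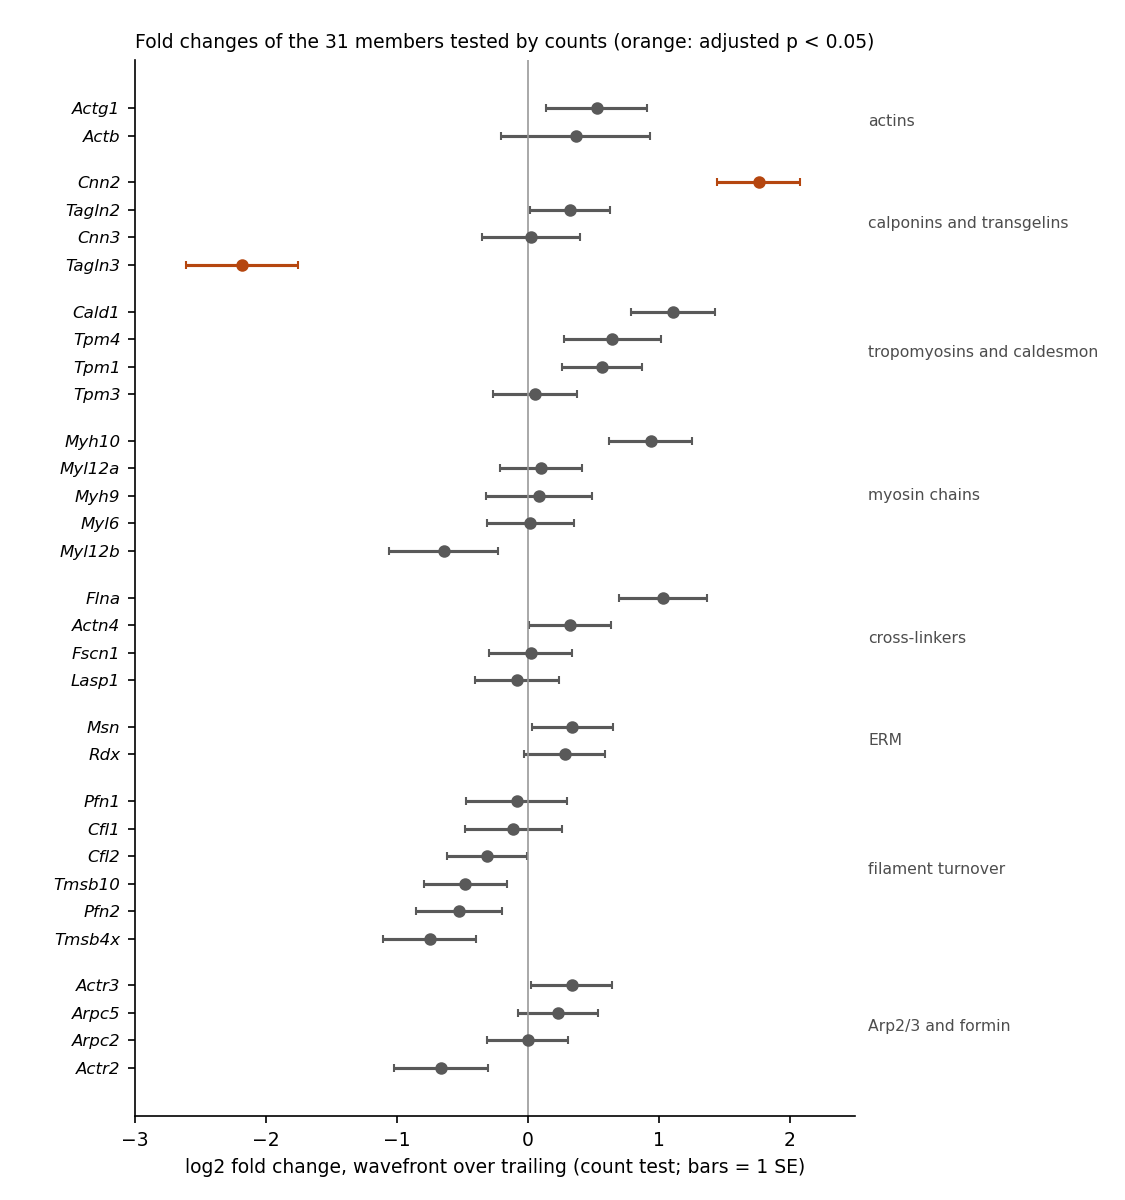
Log2 fold change (wavefront over trailing, count test) with 1 SE for the 31 members tested by counts, grouped by role; orange marks an adjusted p under 0.05. Cnn2 at 1.76 and Tagln3 at -2.18 stand apart, and the other 29 lie from -0.75 (Tmsb4x) to 1.11 (Cald1).

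Shares within a family need no scaling between libraries, because the reads of all paralogues come from the same library. Cnn2 took 6.82% of calponin reads in trailing replicate 1 (49 of 718, exact Clopper-Pearson 95% interval 5.09 to 8.92%) and 9.64% in trailing replicate 2 (7.42 to 12.3%). It took 20.2% in wavefront replicate 1 (17.8 to 22.7%) and 27.0% in wavefront replicate 2 (21.3 to 33.3%). The intervals of the wavefront libraries lay above those of both trailing ones, with Cnn3 making up all other calponin reads. Tagln3 took 34.6 and 38.7% of transgelin reads in trailing cells and 9.16 and 7.14% at the wavefront. The last value rests on 2 of 28 reads (0.877 to 23.5%). Tagln2 made up most of the remainder, at 63.6 and 61.3% against 90.1 and 85.7%.

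Myh10 took 71.8 and 70.1% of nonmuscle heavy chain reads in trailing cells and 82.5 and 80.8% at the wavefront, with counting intervals that overlap between groups. Tpm3 took 21.99 and 24.5% of tropomyosin reads against 17.2 and 14.5%, and Tpm4 was the largest in all libraries, at 62.1 to 73.6%. Of the ERM reads Msn took 49.2 and 48.6% in trailing cells and 52.6 and 47.9% at the wavefront, with overlap. Of 37 shares in 13 families, 13 did not overlap between groups (35.1%, beside 39.3% of all tested genes in scaled CPM). Shares in a family mirror each other, as with Cnn2 and Cnn3, so they are not independent. The 39.3% is a share of single genes and no exact background for them. With 2 libraries a group the exact two-sided permutation test cannot go below p = 0.333, the value it gave for Cnn2, Tagln3, Myh10 and Tpm3 (adjusted p = 0.949 over the 37 shares). Intervals cover counting error within a library only and leave out the spread between libraries. Reads carried no molecular identifiers, so copies of the same molecule were not set apart and the intervals may be too narrow.

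**Figure D4:**
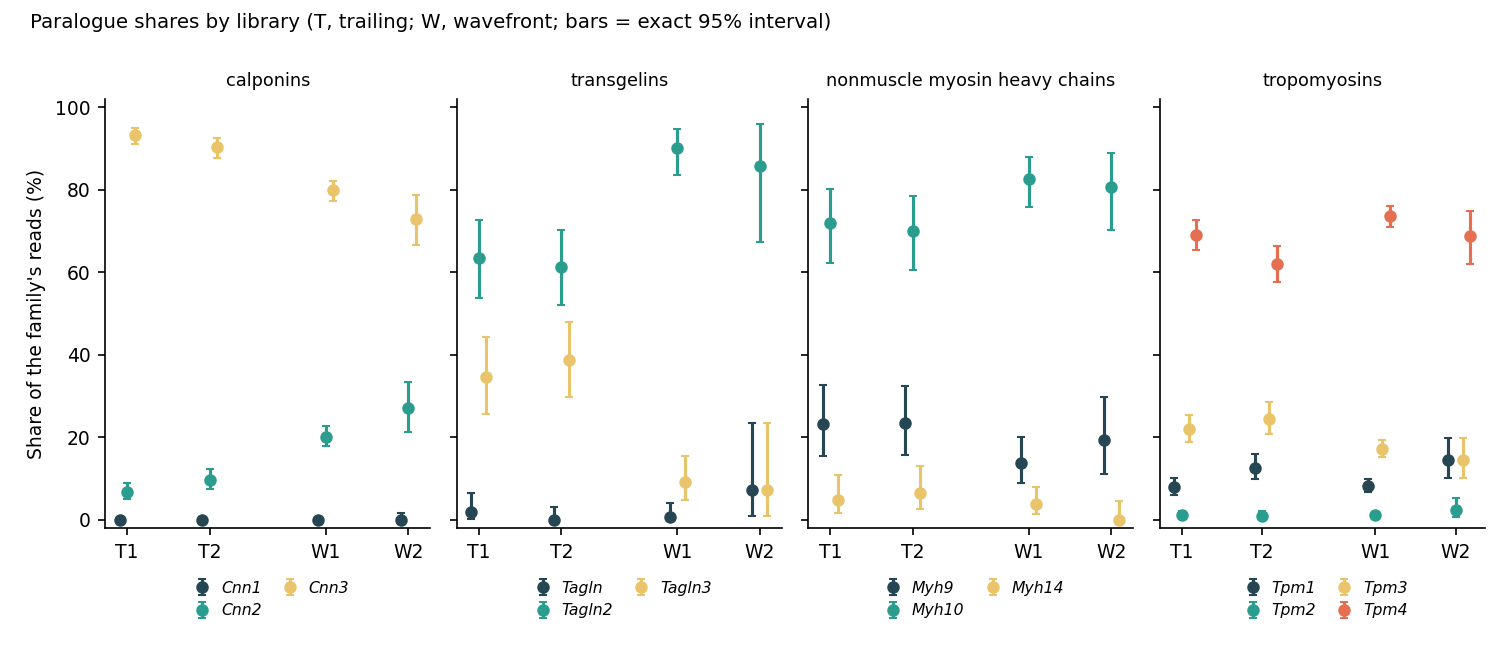
Share of a family's reads (%) taken by each paralogue in trailing (T) and wavefront (W) libraries, with exact 95% intervals, for calponins, transgelins, nonmuscle myosin heavy chains and tropomyosins. Cnn2 stands at 6.82 and 9.64% in trailing and 20.2 and 27.0% in wavefront libraries, and Tagln3 at 34.6 and 38.7% against 9.16 and 7.14%.

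Levels of different genes were compared per length, as CPM outside ribosomal RNA per kilobase of merged exons. On that scale Actb led with 5966 and 5462 in trailing cells and 8177 and 6363 at the wavefront. Actg1 came next at 625 to 1031. Tmsb4x (386 to 1039), Tpm4 (431 to 912), Cnn3 (472 to 643), Pfn1 (271 to 734), Cfl1 (229 to 514) and Tmsb10 (239 to 429) followed, and from Actg1 on neighbours in this order overlapped in their ranges over libraries. Cnn2 went from 51.5 and 72.5 to 200 and 216, which placed it between these genes and Arpc2 (116 to 133) at the wavefront. Tagln3 went from 77.2 and 112 to 21.4 and 14.03. At the low end were Myh14, Diaph1, Flnc, Actg2, Tagln and Actn1, each with a mean under that of Ezr at 5.76, and Cnn1 at 0. Myh10 had a higher level than Myh9 in every library, at 18.3 to 52.4 against 3.76 to 10.1.

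Other genes of the pathway are given beside the share of all genes called. Of 81 further actin regulators 45 were tested by counts: 0 rose, 0 fell, and 6 had an unadjusted p under 0.05 in edgeR, where 1.74% of all genes were called and 9.95% were past the unadjusted mark. In limma 0 of 73 were called and 4 were past the unadjusted mark, beside 0.00% and 6.85% of all genes. Their median log2 fold change was 0.01. The nearest was Tmod2, a neuronal tropomodulin that caps filament ends, with 30 and 27 reads in trailing cells and 14 and 0 at the wavefront (-1.68 ± 0.49, edgeR adjusted p = 0.0663). Coro2b, a coronin, had 25 and 25 against 55 and 17 (0.93 ± 0.34, edgeR adjusted p = 0.215).

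Of 69 small GTPases, their regulators and regulators of myosin, 34 were tested by counts: Arhgef3 rose, 0 fell and 33 did not pass, with a median of 0.15, and 5 had an unadjusted p under 0.05 (all genes: 1.74% called, 9.95% unadjusted). Arhgef3, an exchange factor that activates RhoA and RhoB, had 20 and 16 reads in trailing cells and 71 and 22 at the wavefront (33.8 ± 2.89 against 118 ± 6.78 scaled CPM, SD, n = 2 each; 1.77 ± 0.34, edgeR adjusted p = 0.000656). Its call ended without trailing replicate 2 (1.70, adjusted p = 0.09), with scaling by library size alone (1.56, adjusted p = 0.178), in DESeq2 (1.79, adjusted p = 0.306) and in the authors' deposited table (1.26, adjusted p = 1 with their p-values adjusted here). Rac1, the GTPase of lamellipodia, had 50 and 45 against 184 and 9, so the wavefront libraries lay on opposite sides of the trailing ones in scaled CPM (1.13 ± 0.36, edgeR adjusted p = 0.114). Rhoc had 46 and 47 against 29 and 8 (-0.94 ± 0.35, adjusted p = 0.233). Mylk, the kinase that activates smooth muscle myosin, had 0 reads in all libraries, while the kinases Rock1 and Rock2 had 9 to 25 reads in each. Limma called 0 of 62 of these genes, with 3 at an unadjusted p under 0.05, beside 6.85% of all genes.

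The list of SRF targets and cofactors held 30 symbols for 26 genes, with Mkl1, Mkl2, Cyr61 and Ctgf also listed under newer symbols. All 26 were in the table and 12 were tested by counts. Of these, 0 passed and 2 had an unadjusted p under 0.05 in edgeR, beside 1.74 and 9.95% of all genes. The median log2 fold change was 0.25, and limma called 0 of 24, with 0 past the unadjusted mark. Zyx, zyxin of stress fibres and focal adhesions, came nearest with 19 and 27 reads against 68 and 15 (1.19 ± 0.34, edgeR adjusted p = 0.0523). Vcl, vinculin, followed with 41 and 31 against 62 and 24 (0.71 ± 0.32, adjusted p = 0.437). Pdlim5 had 14 and 20 against 29 and 12 (0.70 ± 0.41, adjusted p = 0.613). Srf itself had 4, 1, 2 and 0 reads.

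**Figure D5:**
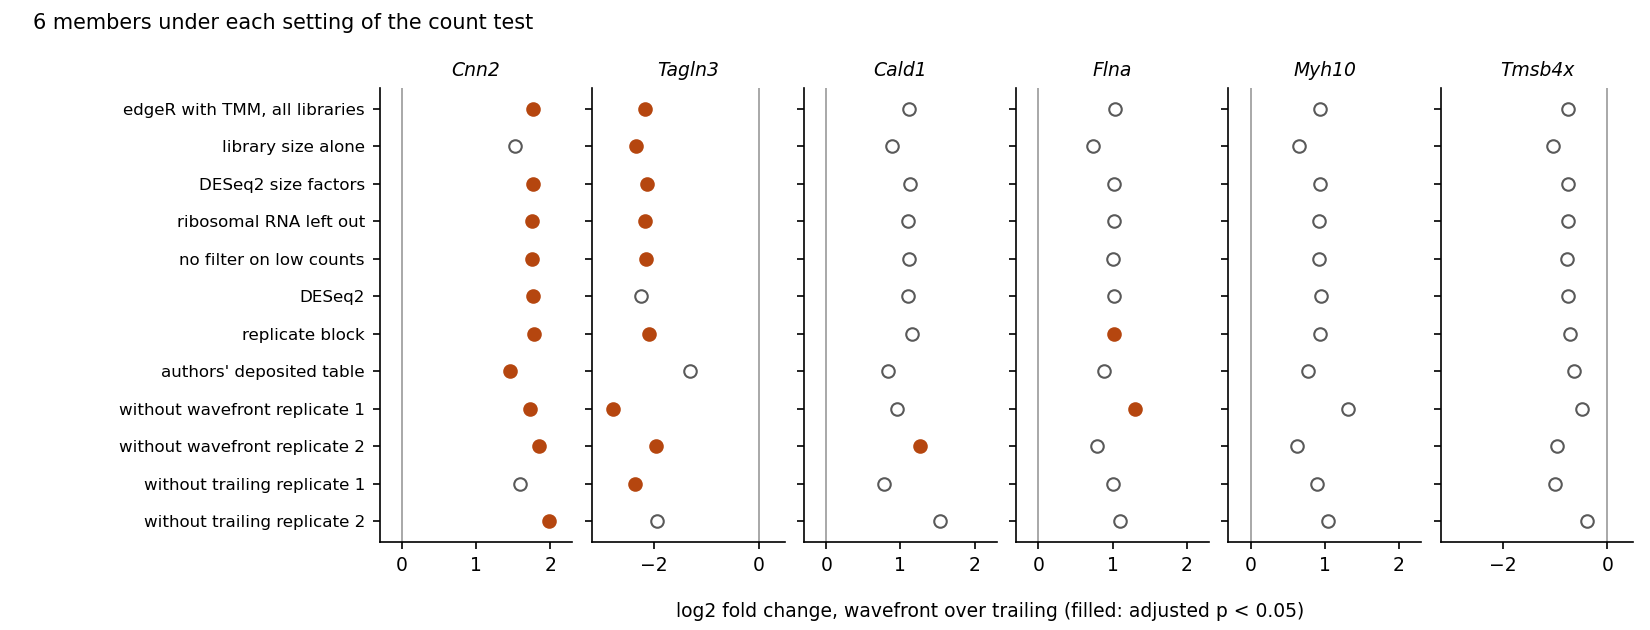
Log2 fold change (wavefront over trailing) of 6 members under the count test and its 11 alternatives, 1 row per setting; filled points have an adjusted p under 0.05. Each of the 6 keeps its direction in these settings; Cnn2 passes in 9 and Tagln3 in 8 of the 11 alternatives, Flna in 2, Cald1 in 1, and Myh10 and Tmsb4x in 0.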

How the data were processed

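Sorted neural crest-derived cells were profiled by RNA-seq in 4 libraries, 2 per location. The submitters' processing notes name STAR 2.5.2b, featureCounts, bcl2fastq 2.17, DESeq2 and FastQC 0.11.9, with GRCm38 (mm10). For the annotation release and the strand and multiple-hit settings, the sources used here give nothing. Per the labels, libraries were made with Nextera XT, which keeps no strand, so overlapping genes share reads. Actn4 and Cfl1 overlap Capn12 and Snx32, which had 6 and 4 reads. Among other overlaps, Cnn3 shares 538 exon bases with Gm42928 and Tagln 1241 with Gm48529. Reads of Gm42928 and Gm48529 were not available, so sharing there, also in the calponin shares, was not assessed.

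The authors deposited CPM per library (per the file headers), and 100% of values were whole multiples of 1 read within 0.01 reads, where 1 read is worth 1.84 to 3.84 CPM. The authors' BaseMean is a signal (mean scaled reads), their fold change and standard error are log2 values, their Wald statistic is a score, and their deposited p-value is unadjusted. Repeated identifiers (428 rows of 27606) were kept once. Rows without a symbol (958) were kept.

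Tests were limma 3.58.1 on log2(CPM + 1) with a trend of variance on mean, over genes of mean CPM above 1, and edgeR 4.0.16 on recovered reads (TMM, filterByExpr with 10 reads, quasi-likelihood F test), with location as the only term. DESeq2 1.42.0 was an alternative (R 4.3.3). The SE given with edgeR was derived as the size of the log2 fold change over the square root of its F statistic. Tests were two-sided, with Benjamini-Hochberg adjustment over all genes tested and a threshold of 0.05. Both tests were checked on simulated data with the same spread for all genes. That check does not show how they perform on libraries as uneven as these. Positions and exon lengths are GENCODE M21's, on the same build; promoters are RefSeq's. Members past the threshold in either test, with an unadjusted p under 0.05 by counts, or most read in their role were given in full. In each pathway list, genes past the threshold and up to 3 with the smallest p were named, except 1 that is not reported here. Per-library reads were given for other members too, beyond that rule. Members and lists were chosen with earlier results of these data known. Marker lists for endothelium, gut epithelium, mesothelium, leukocytes, striated muscle and visceral smooth muscle were summed too.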

Additional observations from a re-analysis of the deposited data

How the results depend on the processing

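In the count test, Cnn2 and Tagln3 were both called with all libraries, and 1 of them with library size alone (Tagln3), in DESeq2 and by the authors' deposited p-values (Cnn2 in both); leaving out 1 library gave 1 to 3 called members. The count over all genes, 100, was 15 in DESeq2 and 13 by the authors' p-values, and 41 (without trailing replicate 2) to 142 (without wavefront replicate 2) with 1 library left out. DESeq2 gave no adjusted p to 11070 of 14589 genes, 10 members among them. The members' median by counts was 0.09 with all libraries. It was -0.10 without wavefront replicate 1 and 0.41 without wavefront replicate 2, the lowest and highest with 1 library left out. With library size alone it was -0.11, where all genes were at -0.18. The mark set for a move was the SD between the same wavefront libraries, so it cannot show that the median was stable. In limma 1 member, Tagln3, passed with a filter at mean CPM above 10, beside 36 of all genes. With TMM factors 2 members passed, Cnn2 and Tagln3, beside 46 of all genes. Over all genes 3 passed with a pseudocount of 5, 5 without a filter and 9 with DESeq2 size factors. Leaving out 1 library gave 0 calls in limma.

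The replicate numbers are not stated to pair libraries, and differences between replicates 1 and 2 correlated at 0.06 between locations. With replicate number as a block, the count test called 3 members, Flna being the addition (1.02, edgeR adjusted p = 0.0349), and 78 genes in all; limma with the block called 1 member (Tagln3) and 52 genes.

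Genes near no change turned sign without passing. Arpc2 was at 0.0098 with DESeq2 size factors, 0.00087 without a filter and from -0.23 to 0.19 with 1 library left out. Cnn3 was at -0.15 with library size alone, -0.0068 with the replicate block and from -0.32 to 0.34 with 1 library left out. Myl12a was at -0.11 with library size alone, and with 1 library left out Myl12a ranged from -0.16 to 0.33, Msn from -0.10 to 0.65 and Pfn1 from -1.13 to 0.53. For Arhgef3, Des and Col3a1 these alternatives were added after seeing the data. Col3a1 was also not called with library size alone (1.24, adjusted p = 0.787), in DESeq2 (1.60, adjusted p = 0.164) and in the authors' deposited table (1.26, adjusted p = 0.597). Des was no longer called in DESeq2 (2.78, adjusted p = 0.0983), in the authors' deposited table (1.61, adjusted p = 0.332) and without wavefront replicate 1 (2.05, adjusted p = 0.249). The cause was not tested. Depth limits the 11 members under the filter.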

Other observations

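Markers of further cell types were summed in CPM outside ribosomal RNA, given here for trailing replicates 1 and 2 and then wavefront replicates 1 and 2. Visceral smooth muscle markers, which include 4 of the listed genes, stood at 64.7, 60.5, 208 and 278 CPM, from 25, 20, 94 and 32 reads, with Des giving 73 of the 94. Gut epithelial markers stood at 10.3, 9.07, 30.96 and 87.0 CPM, from 4, 3, 14 and 10 reads, and endothelial markers at 44.0, 84.7, 64.1 and 87.0 CPM, from 17, 28, 29 and 10 reads. Leukocyte, mesothelial and striated muscle markers had 0 to 5 reads in each library. Myh11, the heavy chain that defines smooth muscle myosin, had 0 reads in all libraries, as did Cnn1 and Mylk.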
